A study of Bos taurus with 14 samples.

Results

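The miR-99/100, miR-125 and miR-10 families were examined in the small extracellular vesicles (sEVs) of bovine milk. Members were all entries named bta-miR-99a, bta-miR-99b, bta-miR-100, bta-miR-125a, bta-miR-125b, bta-miR-10a or bta-miR-10b (the prefix for cattle is left out from here on), with either arm and any precursor, which gave 8 of the 350 miRNA/precursors of the table. Of the 7 miRNA of this rule 6 had an entry, and miR-10b was not analysed here. The milk came from 14 Holstein cows with subclinical mastitis, a mammary inflammation without visible signs in milk or udder, and 7 cows in the control group ate the basal ration alone. The 7 cows of the inulin group ate the same ration with 300 g/d of inulin, a fermentable plant fibre, for 5 wk after 1 wk of adaptation, and each library is the milk of 1 cow on the last day. Both groups had subclinical mastitis, so that no healthy cow enters any comparison. The table holds read counts of miRNA per cow, and levels are given as rpm, the reads of a miRNA when the total miRNA count of the same cow is scaled to 1000000. As each read covers a whole mature miRNA, rpm of different miRNA were compared without a correction for length. Such comparisons are of reads, because how evenly the adapter ligation captured different miRNA was not measured.

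A miRNA directs the silencing complex to messenger RNAs that pair with its seed, the short stretch near its 5′ end. The members of the miR-99/100 family share 1 seed and are known for targeting MTOR and other growth signalling genes, while miR-125a and miR-125b share another and are the relatives of lin-4, the first miRNA described in worms. Genes of both families lie together with a let-7 gene in clusters that are conserved across animals, and miR-10 genes lie within the HOX clusters, which pattern the body axis. For cattle, RefSeq lists the genes in this arrangement on its assembly ARS-UCD2.0. In it let-7c was the miRNA gene between mir-125b-2 and mir-99a, all within the same long non-coding RNA gene. Likewise let-7e stood between mir-99b and mir-125a, and let-7a-2 between mir-125b-1 and mir-100. The mir-10a gene lay within HOXB3. Positions are not given, because the submitters' processing notes name the build ARS-UCD1.2.

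The families were a minor part of the milk sEV miRNA. All 8 entries together held 0.0734% ± 0.0529 (SD, n = 7) of all counts of a control cow, from 0.0203% to 0.151%, and 0.0486% ± 0.0169 (SD, n = 7) of an inulin cow, from 0.0286% to 0.0727%. The control cows spanned the whole range of the inulin cows. The miR-125b reads enter these shares 2 times, since miR-125b/mir-125b-1 and miR-125b/mir-125b-2 had equal counts in all 14 cows and cannot be told apart by locus. Counted once, the members had 1088 reads in all cows, of which 65.2% belonged to miR-99/100, 33.1% to miR-125 and 1.75% to miR-10. These reads were spread unevenly over the cows, with 548 in control cow 5, 127 in inulin cow 6, and 3 and 4 in inulin cow 4 and control cow 2.

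Cows had total counts between 4165 and 415020, and this depth limits what can be said of so rare a group. In control cow 2, control cow 7 and inulin cow 4, the 3 cows with totals under 30000, a level of 3 counts was 720 rpm, 129.6 rpm and 202 rpm, while in control cow 5 it was 7.23 rpm. A level of 3 counts is given below as the limit that a count of 0 allows, and the 95% Wilson interval of a count of 0 reaches higher, to 921 rpm, 165.9 rpm and 259 rpm in these 3 cows. Such limits and all intervals for a share cover counting error only.

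By mean level over the 14 cows the order of the members was miR-99a-5p with 218 ± 216 rpm, miR-125a with 129.5 ± 110.2 rpm, miR-125b with 100.9 ± 129.0 rpm, miR-99b with 40.8 ± 64.3 rpm and miR-10a with 17.9 ± 34.3 rpm (SD, n = 14 each). The other arm, miR-99a-3p, had 1.44 ± 4.73 rpm and miR-100 had 0.958 ± 2.69 rpm (SD, n = 14 each). Among the 350 miRNA/precursors miR-99a-5p had rank 61 by this mean, miR-125a 71, miR-99b 113 and miR-10a 158. Neighbours in the order were compared within each cow by an exact sign-flip permutation test, a comparison chosen after seeing the data and made for 6 pairs of neighbours. The level of miR-99a-5p exceeded that of miR-125a in 10 cows, was below it in 3 and equal in 1, with a mean difference of 88.1 ± 234 rpm (SD, n = 14; exact permutation p = 0.184, adjusted p = 0.368). All 3 cows with more miR-125a were control cows, whereas miR-99a-5p was ahead in 6 of 7 inulin cows and both were at 0 in inulin cow 4. Without the 3 shallow cows the difference was 158 rpm (exact permutation p = 0.0205, not adjusted). Between miR-125a and miR-125b the difference was 28.6 ± 152.0 rpm (SD, n = 14; exact permutation p = 0.509, adjusted p = 0.611). The step from miR-125b to miR-99b, 60.1 ± 89.5 rpm, had the smallest p (exact permutation p = 0.0254, adjusted p = 0.152, n = 14). Thus no neighbours in the order differed beyond their spread after adjustment, including miR-99b and miR-10a (exact permutation, adjusted p = 0.451).

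**Figure D1:**
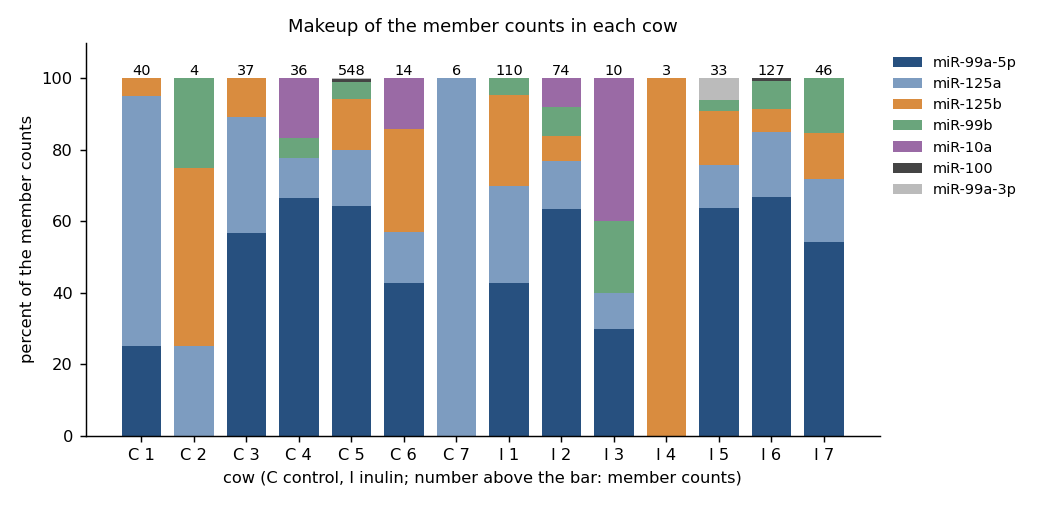
Percent of the member counts of each cow that belonged to each miRNA, with the number of member counts above each bar and miR-125b counted once. In 9 of 14 cows miR-99a-5p had the most counts, and the bars of control cow 2, control cow 7 and inulin cow 4 rest on 4, 6 and 3 counts.

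Most counts of the miR-99/100 family, 641 of 709, belonged to miR-99a-5p, the 5p arm of mir-99a. It had 10, 0, 21, 24, 352, 6 and 0 counts in control cows 1 to 7 and 47, 47, 3, 0, 21, 85 and 25 counts in inulin cows 1 to 7. Scaled to the total, the control cows had 134.7, 0, 291, 135.4, 848, 198.5 and 0 rpm. The inulin cows had 247, 267, 85.8, 0, 186, 320.5 and 333 rpm. The groups overlapped throughout, control cow 5 was higher than any other cow, and the 3 cows at 0 were the 3 with the lowest totals. The mean was 230 ± 292 rpm (SD, n = 7) among control cows and 206 ± 124 rpm (SD, n = 7) among inulin cows, a difference of -24.0 rpm (exact permutation test, two-sided, p = 0.897). Control cow 5 alone held 85.2% of the miR-99a-5p counts of its group, and without it the difference was 79.1 rpm in the other direction (exact permutation test, p = 0.254).

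Of the other miR-99/100 members, miR-99a-3p and miR-100 were near the limit of detection, while miR-99b had 60 counts in 9 cows. The 3p arm, miR-99a-3p, had 3 counts, 1 in control cow 5 and 2 in inulin cow 5, so that the 5p arm made up 99.5% of the 644 counts of both arms (95% Wilson interval 98.6% to 99.8%). The closely related miR-100, the member of this family beside let-7a-2, had 5 counts, 4 in control cow 5 and 1 in inulin cow 6. Of the reads assigned to miR-99a-5p or miR-100, 99.2% belonged to miR-99a-5p (95% Wilson interval 98.2% to 99.7%). These mature miRNA are nearly identical in sequence, and how the counting divided ambiguous reads between them is not given in the sources used here. The third paralog, miR-99b, which lies beside let-7e, had 0, 1, 0, 2, 26, 0 and 0 counts in control cows 1 to 7 and 5, 6, 2, 0, 1, 10 and 7 in inulin cows 1 to 7. It was found in 3 control cows and 6 inulin cows, but 26 of its 29 control counts came from the deepest cow. Its level was 44.9 ± 89.1 rpm (SD, n = 7) among control cows, where 1 count in control cow 2 amounted to 240 rpm, and 36.8 ± 31.2 rpm (SD, n = 7) among inulin cows (exact permutation test, p = 0.924). Without control cow 2 the difference was 24.4 rpm, with the inulin cows higher (exact permutation test, p = 0.152).

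The miR-125 family held the member with the lowest p-value between the groups. It is known for acting in blood cell differentiation and in macrophage activation. For miR-125a the counts were 28, 1, 12, 4, 87, 2 and 6 in control cows 1 to 7 and 30, 10, 1, 0, 4, 23 and 8 in inulin cows 1 to 7. The levels were 377, 240.1, 166, 22.6, 209.6, 66.2 and 259 rpm in the control cows. In the inulin cows they were 158, 56.8, 28.6, 0, 35.4, 86.7 and 106.5 rpm. All 7 inulin cows were below the control median of 209.6 rpm, although control cows 4 and 6 lay within the inulin range. The mean was 191.5 ± 120.1 rpm (SD, n = 7) among control cows and 67.4 ± 53.7 rpm (SD, n = 7) among inulin cows, a difference of -124.1 rpm (exact permutation test, p = 0.0286). Adjusted over the 210 miRNA/precursors tested, the same p was 0.816 (exact permutation test). Leaving out the 3 shallow cows, 2 of them control cows above the control median, gave -89.6 rpm (exact permutation test, p = 0.165), and on the log2 scale the unadjusted p was 0.0594.

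For miR-125b the counts were 2, 2, 4, 0, 77, 4 and 0 in control cows 1 to 7 and 28, 5, 0, 3, 5, 8 and 6 in inulin cows 1 to 7. The levels were 26.9, 480, 55.3, 0, 185.5, 132.3 and 0 rpm in the control cows and 147.4, 28.4, 0, 202, 44.3, 30.2 and 79.9 rpm in the inulin cows. The groups overlapped over the whole inulin range, and the highest cow of each group was its shallowest, with 2 counts in control cow 2 and 3 counts in inulin cow 4. The mean was 125.8 ± 171.1 rpm (SD, n = 7) among control cows and 76.1 ± 73.3 rpm (SD, n = 7) among inulin cows (exact permutation test, p = 0.597). Without control cow 2 the difference of -49.7 rpm became 9.39 rpm (exact permutation test, p = 0.811).

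From the HOX clusters miR-10a had 19 counts in 5 cows. Control cows 4, 5 and 6 had 6, 1 and 2 counts, or 33.9, 2.41 and 66.2 rpm, and inulin cows 2 and 3 had 6 and 4 counts, or 34.1 and 114.4 rpm. In the other cows it was not detected, which in inulin cow 6, the second deepest library, allows a level of up to 11.3 rpm by the limit of 3 counts and 14.5 rpm by the Wilson interval. Its mean was 14.6 ± 25.9 rpm among control cows and 21.2 ± 43.0 rpm among inulin cows (SD, n = 7 each; exact permutation test, p = 0.804). Another miRNA of the HOX clusters, miR-196a, was detected in all 14 cows, with a mean of 695 ± 475 rpm (SD, n = 14) at mir-196a-2, whereas miR-196b had 3 counts. No entry named miR-615 was analysed here.

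**Figure D2:**
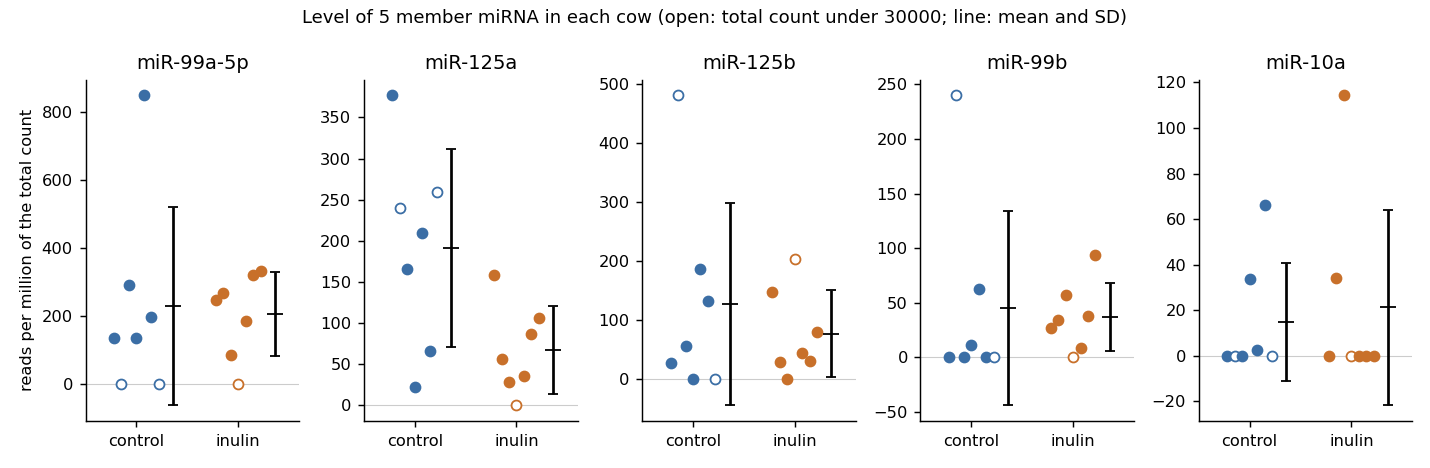
Level of miR-99a-5p, miR-125a, miR-125b, miR-99b and miR-10a in each cow, in rpm, for the control and inulin groups. Points are cows, open where the total count was under 30000, and the line beside each group is the mean and SD. For miR-125a all 7 inulin cows lie below the control median of 209.6 rpm, and for the other miRNA the groups overlap more.

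Whether inulin was associated with a different level of any member was asked with edgeR's quasi-likelihood test across the whole table. Of the 8 entries, 6 passed the minimum of 10 counts over all cows and were tested, representing 5 distinct sets of counts, while miR-99a-3p and miR-100 were too rare. None of the 6 met unadjusted P < 0.05 and |log2FC| > 1 (0 entries, edgeR), and 0 had an unadjusted p under 0.05 with edgeR, DESeq2 or limma-voom. Over all 210 tested miRNA/precursors 9.05% met the rule. The log2 fold change of the inulin group against the control group was -1.28 for miR-125a (standard error 0.83, 95% interval -3.0 to 0.44, adjusted p = 0.898 from edgeR). With DESeq2 it was -1.40, with an unadjusted p of 0.0536. The value was -0.25 for miR-99a-5p, -0.45 for miR-125b, 0.45 for miR-99b and 0.22 for miR-10a (each with an adjusted p of 0.985 from edgeR). The 95% intervals reached from -2.07 to 1.57 for miR-99a-5p, from -2.80 to 1.89 for miR-125b, from -2.0 to 2.91 for miR-99b and from -2.78 to 3.22 for miR-10a, so that differences of 2-fold in either direction remain possible for these miRNA. The median over the 5 distinct sets was -0.25, against -0.40 over all 210, where 147 values were negative. Of the 6 entries 4 had a negative value.

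**Figure D3:**
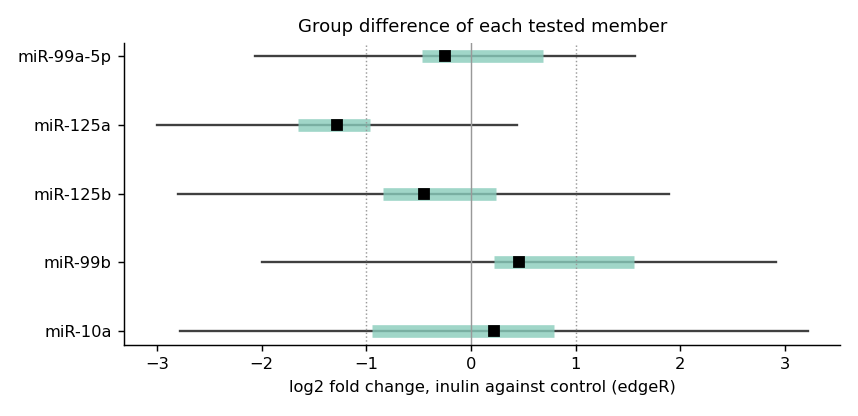
Log2 fold change of the inulin group against the control group for each tested member (square), with its 95% interval computed from the edgeR fit (line). The band is the range over fits that each leave out 1 cow. Dotted lines mark a log2 fold change of -1 and 1. The miR-125a band lies between -1.65 and -0.96, and the bands of miR-99a-5p, miR-125b and miR-10a cross 0.

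Since the total of a cow is dominated by other miRNA, members were also set against the let-7 gene of their own cluster, which does not use the total. The let-7 partners were far more abundant, with 32556 ± 21972 rpm for let-7c, 160674 ± 35214 rpm for let-7a-5p at let-7a-2, and 1503 ± 619 rpm for let-7e (SD, n = 14 each). For each 100 counts of let-7c there were 1.68 counts of miR-99a-5p and 0.378 of miR-125b over all cows, and for each 100 of let-7e there were 7.41 of miR-125a and 2.06 of miR-99b. By group, the control cows had 2.84 and the inulin cows 0.969 counts of miR-99a-5p per 100 of let-7c, and 0.611 and 0.234 of miR-125b. Control cow 5 carried the control values, which without it were 0.747 for miR-99a-5p and 0.147 for miR-125b. Over all cows but this one there were 0.912 counts of miR-99a-5p and 0.211 of miR-125b per 100 of let-7c, and 6.42 of miR-125a and 1.69 of miR-99b per 100 of let-7e. The reads of miR-125b belong to 2 loci, only 1 of them beside let-7c, so its ratio is not one of a single cluster. The miR-100 to let-7a-2 pair was not compared, because let-7a-5p reads belong to 3 loci and miR-100 had 5 counts.

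The ratio of miR-125a to let-7e was lower in the inulin cows, but not beyond the spread between cows. Its denominator let-7e had a mean of 1340 rpm among control cows and 1666 rpm among inulin cows (exact permutation test, p = 0.339). The ratio is thus not a difference of miR-125a alone, and it uses the same miR-125a counts as the level. In control cows 1 to 7 there were 43.1, 25, 13.3, 2.34, 9.61, 2.94 and 28.6 counts of miR-125a per 100 of let-7e, and in inulin cows 1 to 7 there were 10.5, 2.72, 1.32, 0, 2.13, 4.40 and 5.56. The values of the shallow cows rest on few counts of miR-125a and let-7e: 1 and 4 in control cow 2, 6 and 21 in control cow 7, and 0 and 5 in inulin cow 4. Control cows 4 and 6 again lay among the inulin cows, and here control cow 5 did too, below inulin cow 1. On the log2 scale, with 0.5 added to both counts, the mean was -2.97 ± 1.59 among control cows and -4.49 ± 0.95 among inulin cows (SD, n = 7 each; difference -1.53, exact permutation p = 0.0536, adjusted p = 0.214 over 4 ratios). All 7 inulin cows were below the control median of this ratio. Inulin cow 4, with 0 counts of miR-125a, stood at -3.46 through the added 0.5, above the inulin mean. With 1 cow left out the unadjusted exact permutation p reached 0.0163, without control cow 4, and it was also under 0.05 without control cow 6, inulin cow 1 or inulin cow 4. Without any 1 of the other cows it was between 0.0606 and 0.103, the highest without control cow 1, and without the 3 shallow cows the difference was -1.17 (exact permutation p = 0.162). The other ratios differed by less: by -0.22 for miR-99a-5p to let-7c, by -0.33 for miR-125b to let-7c, and by 0.43 for miR-99b to let-7e on the log2 scale (exact permutation, adjusted p = 0.855 each). That of miR-99b became 1.12 without control cow 2 (exact permutation, unadjusted p = 0.0915) and was 1.01 without the 3 shallow cows. With 1 count added in place of 0.5 it was 0.067 (exact permutation, unadjusted p = 0.935), and without inulin cow 4 it was 0.13. That cow had 0 counts of miR-99b and 5 of let-7e, and stood at -3.46 through the added 0.5.

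**Figure D4:**
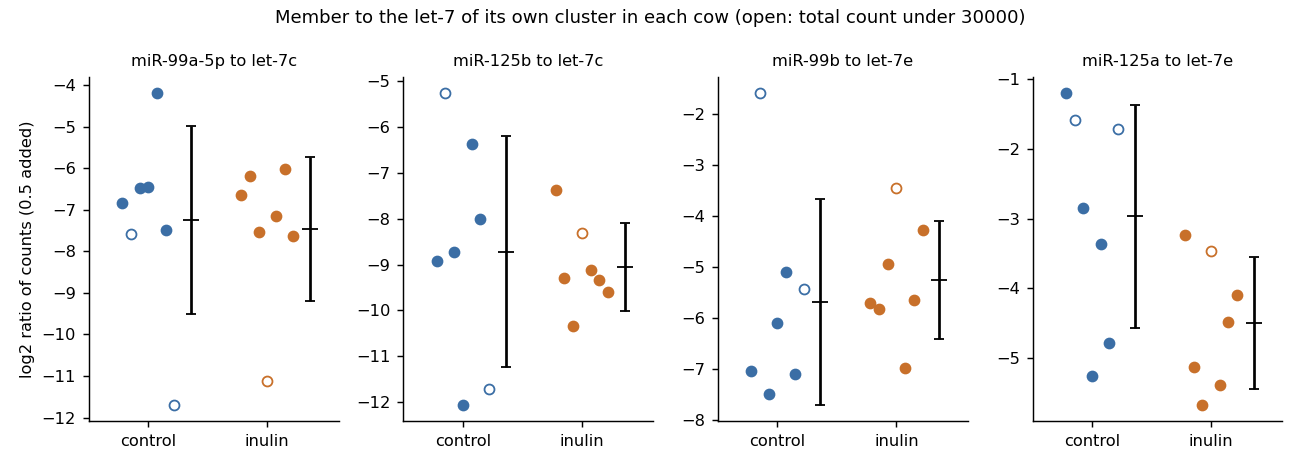
Log2 ratio of each member to the let-7 of its own cluster in each cow, with 0.5 added to both counts, for the control and inulin groups. Points are cows, open where the total count was under 30000, and lines are the mean and SD. The miR-125a to let-7e means are -2.97 and -4.49. The open points of every panel include a cow with 0 counts of the member, which for miR-125a is inulin cow 4, placed at -3.46 by the added 0.5.

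Genes of 1 cluster can be made from 1 transcript, so the levels of cluster partners were compared over the cows, in log2 CPM (counts scaled to the cow's total with TMM normalization). Of the 5 relations between cluster partners none had an adjusted p under 0.05. By Pearson's r the strongest was negative, between miR-99a-5p and let-7c, with r of -0.49 (n = 14, permutation p = 0.0743, adjusted to 0.223) and a rank correlation, Spearman's rho, of -0.27 (permutation p = 0.355, adjusted to 0.711). Within the control group r was -0.65 and within the inulin group -0.49 (exact permutation p = 0.115 and 0.261, n = 7 each). Without the 2 cows farthest from the median it was -0.48, but without the 3 shallow cows it was 0.13, so its sign rests on those cows. Without control cow 2, inulin cow 3 or inulin cow 7 its unadjusted permutation p was under 0.05. For miR-99a-5p and miR-125b, r was -0.06 (permutation p = 0.835, adjusted p = 0.835; rho = 0.10, permutation p = 0.737, adjusted p = 0.737; n = 14), 0.05 without the 2 farthest cows, and 0.64 without the 3 shallow cows (permutation p = 0.0335, n = 11). Within the groups it was 0.04 and -0.27 (exact permutation p = 0.926 and 0.516, n = 7 each). For miR-125b, whose reads belong to 2 loci, and let-7c, the pair with the highest rho, r was 0.23 (permutation p = 0.433, adjusted p = 0.632; rho = 0.44, permutation p = 0.113, adjusted p = 0.340; n = 14), with 0.19 without the 2 farthest cows. Among inulin cows it was 0.76 (n = 7, exact permutation p = 0.0462; rho = 0.89, exact permutation p = 0.0123, not adjusted), with r of 0.10 without its 2 farthest cows, and within the control group -0.12 (exact permutation p = 0.803, n = 7). For miR-125a, r was 0.18 with let-7e and 0.25 with miR-99b (permutation p = 0.527 and 0.397, adjusted p = 0.632 each; rho = -0.15 and 0.16, adjusted p = 0.737 each; n = 14). Without the 2 farthest cows these were -0.31 and 0.31. Within the control and inulin groups they were -0.28 and 0.72 with let-7e and 0.29 and 0.63 with miR-99b (exact permutation p = 0.550, 0.0927, 0.562 and 0.137, n = 7 each).

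The level of miR-99a-5p was higher in the deeper libraries, a relation looked for after the values were seen and counted as the sixth. With the log10 of the total count of the cow, its rpm had r = 0.72 (permutation p = 0.00476, adjusted p = 0.0286; rho = 0.75, permutation p = 0.0027, adjusted p = 0.0162; n = 14). With the deepest and the shallowest cow left out, r was 0.71. Without the 3 shallow cows, which are the cows at 0, r was 0.62 (permutation p = 0.0254, not adjusted). Among control cows alone r was 0.74 (n = 7, exact permutation p = 0.0671) and among inulin cows alone 0.85 (n = 7, exact permutation p = 0.0161), but without the 2 farthest cows of a group these were 0.34 and 0.03. The rank correlations within the groups were 0.70 and 0.61 (exact permutation p = 0.0897 and 0.167, n = 7 each). The part of depth in the miR-99a-5p values was not tested.

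**Figure D5:**
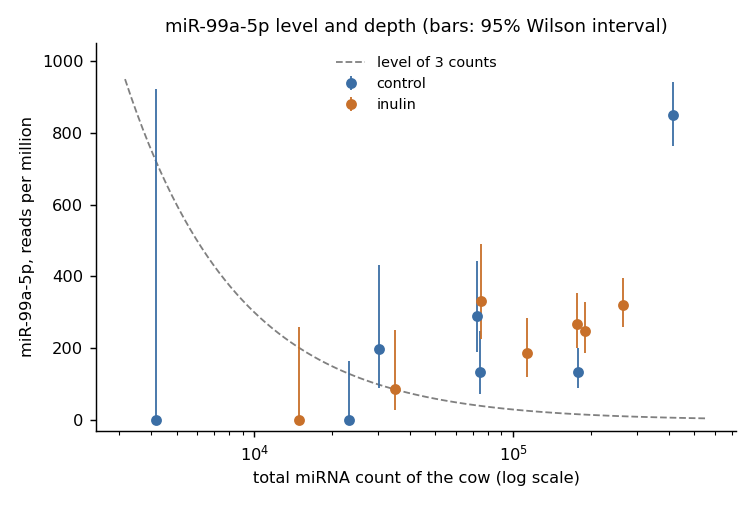
Level of miR-99a-5p in rpm against the total miRNA count of the cow (log axis), with 95% Wilson intervals that cover counting error only. The dashed line is the level of 3 counts at each total. The 3 cows at 0 have the lowest totals, and control cow 5, with 848 rpm, has the highest.

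The miRNA whose levels ordered the 14 cows most like miR-99a-5p, among 172 distinct sets of counts outside the families, was miR-200c, an epithelial miRNA, with a Spearman correlation of 0.91 in log2 CPM. It was followed by miR-186 with 0.80, miR-200a with 0.78 and let-7a-5p with 0.77 at let-7a-1 and at let-7a-2, which rest on nearly the same reads. These levels also went with depth, their correlations with the total count being 0.86, 0.82, 0.73 and 0.68, against 0.86 for miR-99a-5p itself. The values are a description over cows that share these totals.

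Markers of the cells that milk sEVs may come from were listed beside the members. Of 8 miRNA listed for mammary epithelium 7 were detected, and their summed level was 3601 to 15546 rpm in the control cows and 6019 to 10514 rpm in the inulin cows, with medians of 5558 and 7976 rpm and with miR-205 having no entry. Among them miR-375 had a median of 886 rpm in the control cows and 2073 rpm in the inulin cows (log2 fold change 1.10, adjusted p = 0.528 from edgeR). The medians of miR-200c (4296 and 5814 rpm), miR-141 (237 and 463 rpm) and miR-200a (0 and 96.5 rpm) were also higher with inulin. That of miR-148a was lower (33.1 and 5.68 rpm), miR-200b had 33.1 and 34.1 rpm, and miR-429 had 0 rpm in both groups. By edgeR the log2 fold change was 0.04 for miR-200c and miR-200a and negative for miR-141, miR-200b, miR-429 and miR-148a. Of 6 listed for leukocytes 5 were detected, with 0 to 824 rpm in the control cows and 45.4 to 486 rpm in the inulin cows, and with medians of 470 and 405 rpm. Some single leukocyte miRNA differed more than this sum. For miR-223 the median was 148 rpm in the control cows and 0 rpm in the inulin cows (log2 fold change -1.49, adjusted p = 0.914 from edgeR). With 32 counts in all, miR-142-5p met the rule with a log2 fold change of -4.46 (unadjusted p = 0.00567, adjusted p = 0.274 from edgeR). The leukocyte miRNA with the most counts, miR-155 with 347, had medians of 191.9 and 189.5 rpm (log2 fold change 0.17, adjusted p = 0.985 from edgeR). Medians of miR-142-5p, miR-142-3p and miR-150 were 0 rpm in both groups. For red blood cells 1 of 3 was detected and reached 67.5 rpm at most, while miR-451 and miR-144 had no entry. For stroma and smooth muscle 3 of 5 were detected, with a median of 0 rpm in the control group and 45.2 rpm in the inulin group and a highest level of 114.4 rpm. The 3 listed for muscle were all detected, but miR-1 had 332 counts, miR-206 had 7 and miR-133a had 2. Their sum had medians of 13.8 and 17.7 rpm, although the highest control cow had 3865 rpm and the highest inulin cow 1687 rpm. Their part in the levels of miR-99a-5p and miR-125a was not tested, and fewer vesicles of a cell type and fewer copies in each vesicle cannot be told apart in these bulk samples.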

How the data were processed

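Milk sEV small RNA was sequenced in 1 library for each of 14 cows. The authors trimmed adapters and filtered reads by size and quality, annotated them with bowtie, Rfam and miRBase, and counted them per miRNA/precursor with miRDeep2. The deposited table holds these raw counts, the rpm that the authors computed from them, and lengths of the mature miRNA, another unit. The deposited rpm differed from the recomputed rpm by at most 0.005, and all results start from the counts. Reads of 1 mature miRNA are listed with each of its precursors, so a cow's total counts some reads more than once. The labels give no batch, and 0 columns were left without a cow.

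Entries with at least 10 counts over all cows were tested with edgeR 4.0.16 (TMM, R 4.3.3), whose p is also bounded by a Poisson test. The rule was that of the study, unadjusted P < 0.05 and |log2FC| > 1, with Benjamini-Hochberg adjustment. Single values were compared over all divisions of the cows by exact permutation (two-sided, smallest possible p 0.000583 for 7 against 7), and relations with 100000 permutations. Levels on the log2 scale had a prior count of 2. Alternatives were DESeq2 1.42.0, which the study used, limma-voom (limma 3.58.1), other scalings and filters, 1 precursor per mature miRNA, totals under 30000 left out, and each cow left out. The fits were tested on simulated data, where recovery of changes was required only at a dispersion (spread between cows beyond counting error) well below that of these data. The edgeR common dispersion here was 1.43, so this check does not give the power for the members. Figures used matplotlib 3.10.9, and other steps Python 3.11.15, NumPy 2.4.6, pandas 2.3.3 and SciPy 1.17.1. Named miRNA were all members, their let-7 and HOX context, and the 5 entries most like miR-99a-5p. The members and lists were chosen with earlier results of these data known. No file used here holds the miRNA sequences, so none are shown.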

Additional observations from a re-analysis of the deposited data

Results flagged for a closer look

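An outlying cow was sought by Dixon's ratio (critical value 0.568 for 7 cows) in 26 groups of 7 values, and 11 were picked. About 1.3 picks would be expected if the values of every group were normally distributed. Levels that include counts of 0 or rest on 1 to 4 counts are not, so the 11 picks cannot be read as an excess over 1.3. The total count of control cow 5 was 415020, against 177212 in the next control cow, and the same cow had the highest miR-99a-5p level, 848 rpm against 291 rpm in the next. Control cow 2, with the lowest total, had the highest control levels of miR-125b, 480 rpm from 2 counts, and of miR-99b, 240 rpm from 1 count, and its log2 ratio of miR-99b to let-7e was -1.58 against -5.09 in the next cow. The log2 ratio of miR-99a-5p to let-7c was -11.1 in inulin cow 4, which had 0 counts of miR-99a-5p. The miR-10a level of inulin cow 3 was 114.4 rpm from 4 counts, against 34.1 rpm in the next inulin cow. The remaining 4 were the only cow of their group with any count, for which the ratio is always 1: miR-100 in control cow 5 (9.64 rpm) and inulin cow 6 (3.77 rpm), and miR-99a-3p in control cow 5 (2.41 rpm) and inulin cow 5 (17.7 rpm).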

How the results depend on the processing

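No member met the rule under any setting (0 entries with edgeR, DESeq2 and limma-voom, at every filter and scaling, with cow number as a block, and with each cow left out). The filter of filterByExpr left only miR-99a-5p among the members. The number of the cow does not pair animals, and same-numbered cows did not vary alike (correlations from -0.33 to 0.26, with 0 of 7 control cows closest to their own number). With this replicate block the log2 fold changes were -1.50 for miR-125a, -0.24 for miR-125b, 1.15 for miR-99b, -0.75 for miR-10a and 0.15 for miR-99a-5p, the last 2 with the opposite sign, and the ratios to let-7 kept their values, with p = 0.0938 for miR-125a to let-7e (exact sign-flip permutation).

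The sign of the miR-10a fold change also turned with DESeq2 (-0.15), limma-voom (-0.71), DESeq2 size factors (-0.018) and without the 3 shallow cows (-0.27), and that of miR-99a-5p without a filter (0.0094). On the log2 scale the level differences were 0.42 for miR-99a-5p and 0.35 for miR-99b, opposite to those in rpm, and -1.22 for miR-125a (exact permutation p = 0.0594). Without the shallow cows they were 28.1 rpm for miR-99b and -89.6 rpm for miR-125a, the relations were 0.13 (miR-99a-5p with let-7c), 0.64 (with miR-125b), -0.60 (miR-125a with let-7e) and -0.28 (with miR-99b), and the steps in the order were 158 rpm for miR-99a-5p over miR-125a and 36.3 rpm for miR-125b over miR-99b. Within groups, r was 0.045 for miR-99a-5p with miR-125b, -0.12 for miR-125b with let-7c and -0.28 for miR-125a with let-7e in the control group, 0.76 for miR-125b with let-7c in the inulin group, and 0.74 for miR-99a-5p with depth in the control group. With 1 precursor per mature miRNA the members' mean share of an inulin cow was 0.0691%, from 0.0315% to 0.102%. In the same setting the control cows had 0.0260% to 0.234%, again over the whole inulin range. The cause of these changes was not tested.

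With each cow left out, the log2 fold changes ranged from -1.65 to -0.96 for miR-125a, -0.47 to 0.69 for miR-99a-5p, -0.84 to 0.24 for miR-125b, 0.22 to 1.56 for miR-99b and -0.94 to 0.80 for miR-10a. The level differences ranged from -152 to -93.2 rpm for miR-125a, -62.3 to 79.1 for miR-99a-5p, -70.7 to 9.39 for miR-125b, -17.5 to 24.4 for miR-99b and -8.95 to 15.2 for miR-10a. That of miR-125a had p over 0.05 without control cow 1, inulin cow 3 or inulin cow 4. The ratios ranged from -1.91 to -1.23 (miR-125a to let-7e), -0.89 to 0.24 (miR-125b to let-7c), -0.97 to 0.39 (miR-99a-5p to let-7c) and 0.13 to 1.12 (miR-99b to let-7e). The relations ranged from -0.59 to -0.24 (miR-99a-5p with let-7c), -0.31 to 0.24 (with miR-125b), -0.44 to 0.31 (miR-125a with let-7e) and -0.068 to 0.37 (with miR-99b). The steps ranged from 45.8 to 114.9 rpm for miR-99a-5p over miR-125a (lowest without control cow 5), 3.82 to 49.2 for miR-125a over miR-125b (without control cow 1 and 2), 46.3 to 69.1 for miR-125b over miR-99b, 6.18 to 29.7 for miR-99b over miR-10a (lowest without control cow 2), 8.95 to 19.1 for miR-10a over miR-99a-3p (lowest without inulin cow 3) and -0.85 to 1.07 rpm for miR-99a-3p over miR-100.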
